A study of Mus musculus with 12 samples.

Results

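The genes described are 8 long non-coding RNAs (lncRNAs), among them neuronal, imprinted and nuclear ones: Meg3, Rian, Mirg, Peg13, Malat1, Neat1, Miat and Snhg11. They were chosen by name and matched by Ensembl identifier. The deposited table of 15391 genes held 7 of them, and Mirg had no row in it. No gene in it had fewer than 13 counts over all samples. A missing row can therefore mean few counts or a gene that was not counted. The samples were cultured dorsal root ganglion neurons of adult mice of genotype RPL22HA+/+;Advillin-Cre+, which all had a sciatic nerve injury before culture (preconditioning). All groups therefore shared the tagged ribosomal protein Rpl22, the Cre driver and the injury. They differed in the adeno-associated virus, AAV-shLarp1 with a short hairpin RNA against Larp1 or a control virus (titled AAV-Control in the IP samples and AAV-shControl in the input samples). For each virus, RNA was sequenced from the anti-HA immunoprecipitate (IP) and from input, with 3 columns of counts per group. Advillin-Cre acts in sensory neurons, so other cells of the culture should carry no tag. The labels do not say how many animals or cultures stand behind the columns.

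LncRNAs are long transcripts with no long open reading frame. Meg3, Rian and Mirg come from the maternal allele of the imprinted Dlk1-Dio3 domain and carry microRNAs and small nucleolar RNAs in their introns and exons. Peg13 comes from the paternal allele, within an intron of Trappc9. Malat1 is a nuclear speckle RNA, Neat1 is the scaffold of paraspeckles, and Miat (Gomafu) is a nuclear RNA of neurons that binds splicing factors. Snhg11 is a host gene of small nucleolar RNAs that is abundant in neurons. Larp1 is a cytoplasmic protein that binds the cap and the terminal oligopyrimidine (TOP) tract, a C at the first base followed by a run of pyrimidines.

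The first 50 transcribed bases of the members are shown because Larp1 binds at this place. They are from RefSeq (build GRCm38.p6), 5′ to 3′, and capitals mark an initial C with the pyrimidines that follow it without a break. RefSeq promoter windows matched 6 of the 8 members, and Meg3 had 2 starts. Gas5, shown for comparison, also had 2 starts, of which start 1 began with G and is not printed.
Meg3 start 1: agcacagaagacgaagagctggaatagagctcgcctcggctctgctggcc
Meg3 start 2: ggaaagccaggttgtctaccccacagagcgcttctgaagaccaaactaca
Rian: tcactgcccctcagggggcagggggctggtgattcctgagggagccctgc
Mirg: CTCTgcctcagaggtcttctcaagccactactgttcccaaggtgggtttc
Malat1: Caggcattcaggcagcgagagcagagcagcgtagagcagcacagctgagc
Miat: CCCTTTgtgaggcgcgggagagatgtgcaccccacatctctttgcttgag
Snhg11: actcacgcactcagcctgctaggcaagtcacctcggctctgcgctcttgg
Gas5 start 2, a TOP non-coding RNA shown for comparison: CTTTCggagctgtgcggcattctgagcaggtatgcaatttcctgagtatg

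Miat was the only member whose annotated start had a C followed by at least 4 pyrimidines, a feature of 2.51% of the 32851 windows in the RefSeq table. Its leading run was 6 bases long, against 4 in Mirg and 1 in Malat1. Meg3, Rian and Snhg11 did not start with C. An annotated start need not be the start used in these neurons, and these letters do not show whether Larp1 binds. The 250 bases before and 50 after the first Meg3 start (GRCm38.p6, chr12:109540746-109541045, plus strand) are printed because no other member window held all 3 motifs searched. These were the TATA box (TATAAA), the element bound by NF-Y (CCAAT) and the cAMP response element (TGACGTCA), each on both strands, and capitals mark them. The TATAAA matches on both strands overlap here, and TGACGTCA reads the same on both strands. The table's build is not that of the deposited counts.
Meg3: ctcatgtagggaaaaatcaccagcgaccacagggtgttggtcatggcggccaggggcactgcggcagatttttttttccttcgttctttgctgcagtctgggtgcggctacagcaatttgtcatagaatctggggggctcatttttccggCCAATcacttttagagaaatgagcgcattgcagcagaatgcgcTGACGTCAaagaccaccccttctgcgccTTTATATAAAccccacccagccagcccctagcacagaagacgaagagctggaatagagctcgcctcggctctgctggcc
TGACGTCA lay 57 bases before the start and was found in 1.79% of all windows. TATAAA was found in 13.6% and CCAAT in 37.4%. The Mirg window held CCAAT, and those of Rian, Malat1, Miat and Snhg11 held none of the 3.

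Depth was 3126591 to 3177552 counts per IP column and 564095 to 760140 per input column. The 3 columns of a group differed by little more than the sampling noise of counts. Their totals lay within 0.0344% to 0.0939% of each other, and in 6.98% to 7.62% of genes with at least 30 counts a chi-square test between columns passed 0.05. Each group was for this reason treated as 1 sample with its columns summed (n = 1), and no test between samples exists. Each ratio is the log2 of the sum in the shLarp1 IP over that in the control IP after TMM scaling, a correction for library composition. Its 95% interval (Clopper-Pearson, exact) covers counting error only, and PCR copies are not independent molecules. A call of higher or lower needed an interval that cleared 1.5-fold at both ends (0.58 on the log2 scale). Genes with too few counts for the expression filter were left out of the background. In the IP, the Larp1 columns held 147, 141 and 154 counts with the control virus and 55, 49 and 45 with shLarp1, a log2 ratio of -1.72 that was called lower.

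None of the 7 members in the table was called, against 5.12% of all 8766 genes evaluated (0.719% higher and 4.4% lower) and 7.07% of all genes with IP counts where no filter was set. In all, 63 genes were called higher and 386 lower, and with scaling by total counts the split was 105 and 205. Fewer cells of a type and less RNA per cell cannot be told apart in such samples. Peg13 lay highest of the 7 and Snhg11 lowest. Only 4 passed the expression filter (Peg13, Malat1, Neat1 and Snhg11), while Meg3, Rian and Miat had too few counts. Meg3, Rian and Peg13 had ratios above 0 and the other 4 had ratios below 0, beside 3546 of all genes evaluated above 0 and 5204 below. The intervals of Meg3 and Rian included 0. Malat1, Neat1 and Miat turned positive when ratios were centred on the median of genes at 0 in input. The interval did not include 0 for Peg13, Malat1 and Snhg11, though for Malat1 it did by total counts. Per total count of the column, the IP columns of the 2 groups did not overlap for Peg13 (higher) and Snhg11 (lower). This was so for 46.1% of the genes evaluated (25.5% higher and 20.6% lower) and for 39.8% of all genes with IP counts, so that a lack of overlap is common here. Among genes at 0 in input, as Peg13 was, 8.86% were higher without overlap.

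**Figure D1:**
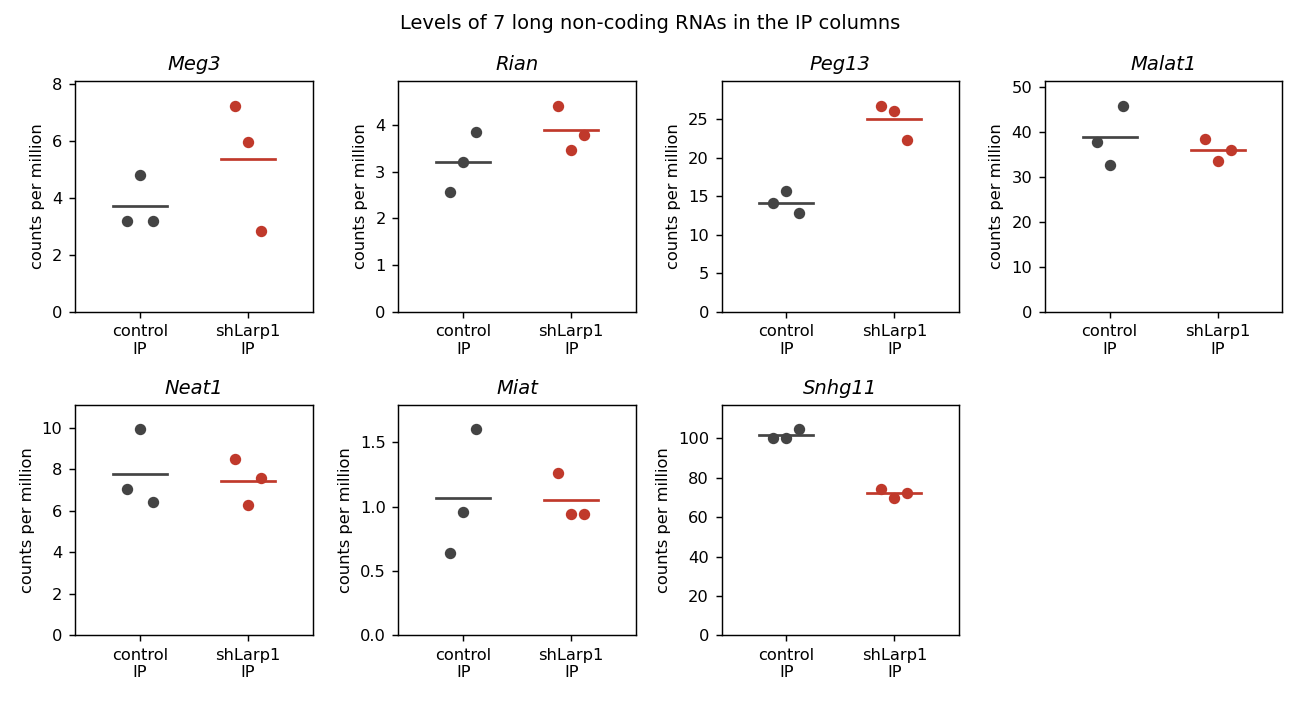
Level (CPM) of each member in the 3 control IP columns and the 3 shLarp1 IP columns, with a line at the mean and an axis from 0 in each panel. The columns do not overlap for Peg13, higher with shLarp1, and Snhg11, lower, while those of the other 5 overlap.

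Among the imprinted members, Peg13 had 44, 49 and 40 counts in the control IP columns and 85, 83 and 71 in the shLarp1 IP columns. Every shLarp1 column was above every control column. In CPM (counts scaled to the column total) its level was 14.2 in the control IP and 25.1 in the shLarp1 IP, and the scaled ratio was 0.69 (0.38 to 1.01), or 1.62-fold. The lower end of this interval did not reach 1.5-fold, so Peg13 was not called. With a lower size rule (log2 0.32) it was called higher, as were 2.33% of all genes. It also passed edgeR's quasi-likelihood test on the columns as if they were replicates, in which 13.6% of all genes passed as higher and 18.5% as lower. Peg13 lies within Trappc9, which encodes a subunit of a vesicle tethering complex. Trappc9 had 106 and 92 IP counts and a ratio of -0.36 (-0.78 to 0.06). To the sides of Peg13, the nearest tabled genes were the RNA-binding protein gene Khdrbs3 (3703.8 kb away) and the histone-fold gene Chrac1 (280.1 kb). Their ratios were -0.12 and 0.25. The spans of Peg13 and Trappc9 overlap, whether the counting used strand is not stated, and how reads were divided between them was not tested.

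Meg3, best known as an imprinted RNA with growth-restraining activity, had 10, 15 and 10 counts in the control IP and 23, 19 and 9 in the shLarp1 IP. Of the shLarp1 columns, 2 were above all control columns and 1 was below them. The ratio was 0.39 (-0.26 to 1.05). It was 0.11 without the shLarp1 column of 23 counts, 0.69 (0.01 to 1.38) without that of 9 counts and 0.62 without the control column of 15 counts. Centred on the median of genes at 0 in input it was 0.85 (0.21 to 1.52). The shLarp1 columns of Meg3 had a variance of 3.06 times the mean, a value that rests on 3 columns of 9 to 23 counts. Rian, which lies downstream of Meg3 and hosts C/D box small nucleolar RNAs, had 8, 10 and 12 counts in the control IP and 14, 11 and 12 in the shLarp1 IP. The columns overlapped, and the ratio was 0.15 (-0.58 to 0.90), with a range of 0.013 to 0.30 when 1 column was left out. Mirg, the microRNA host at the far end of the domain, cannot be described from these counts. RefSeq places 1 microRNA hairpin within the Meg3 span, 3 within Rian and 10 within Mirg, and no mature microRNAs were measured. Rtl1, a retrotransposon-derived gene of the paternal allele whose RefSeq span overlaps Meg3 and Rian, had 64 and 71 IP counts and an interval of -0.51 to 0.51. To the sides of the stretch from Meg3 to Mirg, the nearest tabled genes were Wdr25 (512.5 kb away) and Ppp2r5c (697.7 kb). Wdr25, below the filter, had 20 and 8 IP counts and a ratio of -1.47 (-2.87 to -0.23). The phosphatase subunit gene Ppp2r5c had a ratio of -0.31 (-0.68 to 0.06).

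The nuclear RNAs Malat1 and Neat1 are neighbours on chromosome 19. Malat1 had 118, 102 and 143 counts in the control IP and 122, 106 and 114 in the shLarp1 IP. The shLarp1 columns lay inside the range of the control columns, whose variance was 3.53 times their mean. The ratio was -0.24 (-0.46 to -0.02), with no separation of the columns. Without the control column of 143 counts it was -0.10 (-0.35 to 0.15), and by total counts -0.11 (-0.33 to 0.11). Neat1 had 22, 31 and 20 counts in the control IP and 27, 20 and 24 in the shLarp1 IP, with overlapping columns and a ratio of -0.19 (-0.68 to 0.30). Without the control column of 31 counts, the second, the ratio was 0.023. Miat had 2, 3 and 5 counts against 4, 3 and 3, and with 10 counts in each group its ratio of -0.15 had an interval of -1.57 to 1.27. That interval holds both no change and a change of 1.5-fold in either direction. Of the nearest tabled genes to Miat, the phosphatidylinositol transfer gene Pitpnb, 824.9 kb away, had a ratio of 0.58 (0.13 to 1.05). The crystallin gene Crybb1, 25.6 kb away, had 6 and 12 counts. Frmd8, the protein-coding gene next to Neat1 in the table, had a ratio of -0.38 (-0.76 to 0.01) and was not called.

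**Figure D2:**
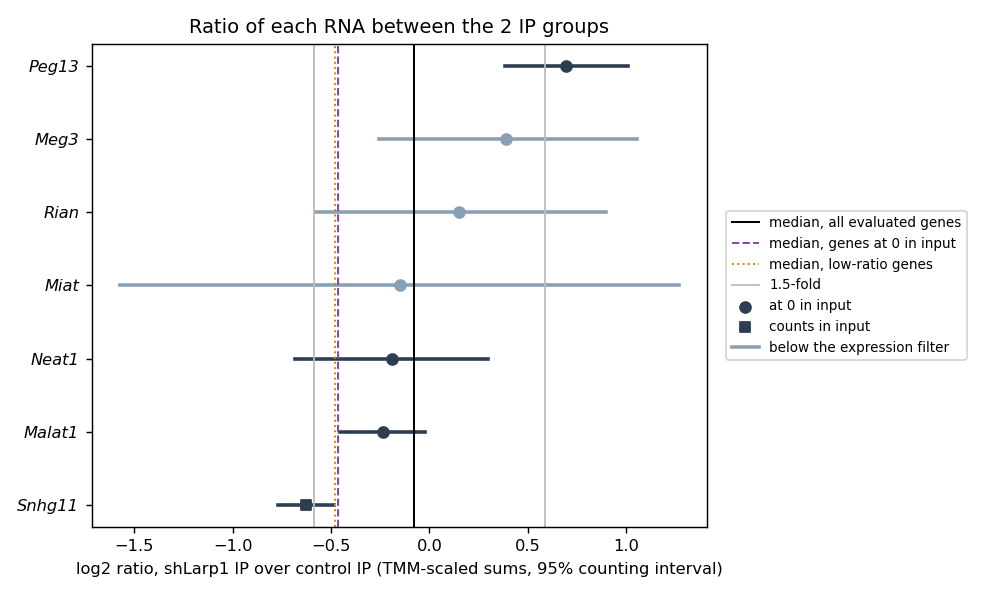
Log2 ratio of the shLarp1 IP to the control IP for each member (point) with its 95% counting interval (bar), beside the medians of all evaluated genes, of genes at 0 in input and of low-ratio genes. Peg13 lies at 0.69 and Snhg11 at -0.63, and no interval lies wholly beyond the grey lines at 1.5-fold.

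Snhg11 had 314, 313 and 327 counts in the control IP and 236, 221 and 230 in the shLarp1 IP. Every shLarp1 column was below every control column. Its ratio was -0.63 (-0.77 to -0.48), a 1.54-fold lower level whose interval did not clear 1.5-fold. Centred on the median of genes at 0 in input it was -0.16 (-0.31 to -0.02). With the lower size rule it was called lower, as were 12.1% of all genes, and it passed the test on the columns as well. The next genes in the table, the small nucleolar RNA host Snhg17 and the Ral GTPase regulator Ralgapb, had ratios of -0.08 (-0.49 to 0.33) and -0.14 (-0.59 to 0.32).

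Snhg11 was also the only member with input counts. The control input columns held 128, 139 and 134 counts and the shLarp1 input columns 194, 207 and 198. This was 237 CPM with the control virus and 263 with shLarp1. The ratio in input was 0.38 (0.20 to 0.57) and was not called, as with most genes there (0.171% called higher and 1.01% lower). Scaled by total counts it was 0.15 (-0.03 to 0.34), and without any 1 input column TMM gave 0.60 to 0.65, so the size of the input difference rested on the scaling. Snhg11 was lower in IP than in input with both viruses, at log2 -2.19 (-2.36 to -2.01) with the control virus and -3.19 (-3.35 to -3.03) with shLarp1. By total counts these ratios were -1.22 and -1.87, and with upper-quartile factors -2.67 and -3.70, so their size also rested on the scaling. The effect of the virus in IP minus that in input was -1.01 (-1.24 to -0.78), called lower, as were 5.57% of genes with input counts. By total counts it was -0.65 (-0.88 to -0.41) and was not called. With DESeq2 size factors (-1.21) and with upper-quartile factors (-1.02) it was called lower.

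**Figure D3:**
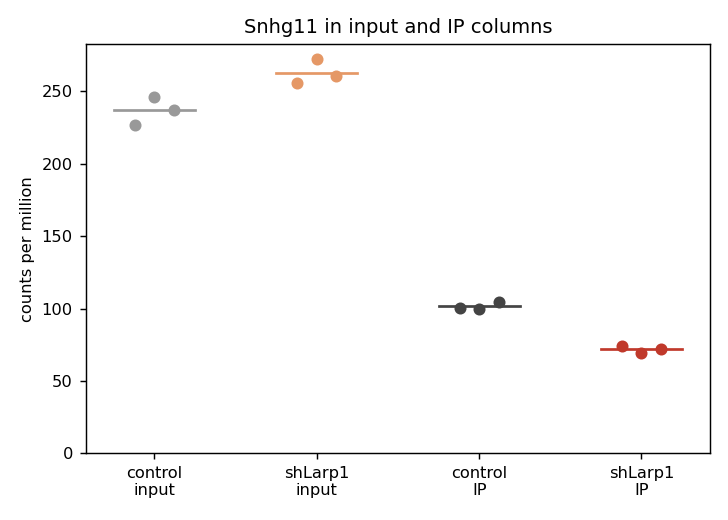
Level of Snhg11 in the 12 columns, in CPM, with a line at each group's mean. The input columns lie at 227 to 273 and the IP columns at 69.6 to 105, with shLarp1 above control in input and below it in IP.

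These values of Snhg11 lay near those of other genes with a low IP-to-input ratio. Low-ratio genes are those whose log2 ratio of IP over input, averaged over the viruses, lay below -2 after TMM scaling. Snhg11 is one by that scaling, whereas by total counts both of its ratios lay above -2. The 774 of them evaluated had a median of -0.48 in the IP and 0.43 in input. Values of this class were computed with TMM scaling alone. Of the low-ratio genes 14.6% were called lower in the IP, and 46.4% of those tested were called lower for the difference between IP and input. Of the other low-ratio genes with a ratio, 33.5% lay lower than Snhg11 in the IP.

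The remaining 6 members had 0 counts in every input column. A count of 0 allows up to 1.77 CPM in the control input and 1.32 in the shLarp1 input (3 counts of the total), counting error only. Malat1, for comparison, had 38.7 CPM in the control IP and 35.9 in the shLarp1 IP. No ratio of IP to input is given for these 6, because the zeros followed gene type. Of 802 genes that RefSeq types as lncRNA, 784 (97.8%) were at 0 in input, against 6.61% of 12248 protein-coding genes. Among genes with at least as many IP counts as Peg13, 133 of 137 non-coding RNA genes (97.1%) and 1 of 3160 protein-coding genes (0.0316%) were at 0. Whether input and IP columns were counted against different gene sets was not tested.

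Genes at 0 in input took 16.1% of control IP counts and 13.7% of shLarp1 IP counts. The 1185 of them that were evaluated had a median IP ratio of -0.46, against -0.08 in all genes, with 0.759% called higher and 15.5% lower. The low values were seen in non-coding RNA genes at 0 in input (277 genes, median -0.43) and in genes with no RefSeq type (841 genes, -0.49). They were not seen in the 43 protein-coding genes at 0 in input, whose median was -0.07. The 10 evaluated non-coding RNA genes that had input counts had a median of 0.06. Against this class Peg13 lay high, since 97.4% of the other genes at 0 in input had a lower ratio. Of the same class 69.7% lay below Malat1 and 72.6% below Neat1. Meg3 and Rian, below the filter, had ratios above those of 93.4% and 88.5% of it. These shares describe where the members lay and are no test.

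**Figure D4:**
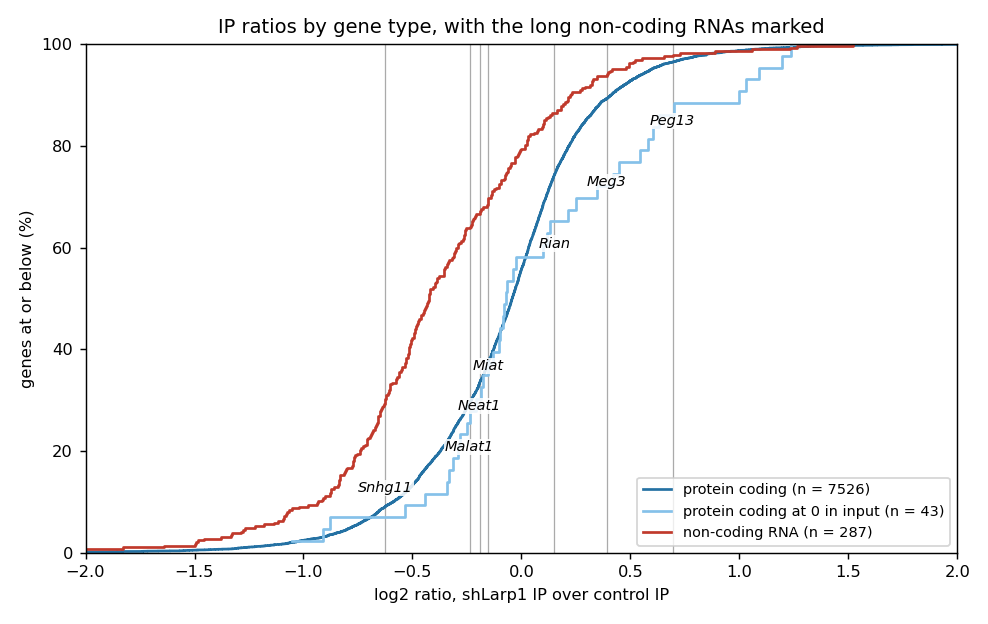
Cumulative share of genes (%) by log2 ratio of the shLarp1 IP to the control IP, for protein-coding genes, protein-coding genes at 0 in input and non-coding RNA genes with counts in both IP groups, with grey lines at the members. The non-coding curve is shifted to lower ratios, and Peg13 lies near its upper end.

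Other genes give the setting. Of 283 other non-coding RNA genes evaluated, 3 were called higher (1.06%) and 40 lower (14.1%), with a median of -0.43. The called higher ones were Gm14488 (26 and 83 IP counts, ratio 1.52), Gm9828 (45 and 120, 1.26) and C430002N11Rik (31 and 81, 1.23). The largest declines were in 4732465J04Rik (83 and 19 counts, -2.28), 4933439C10Rik (65 and 18, -2.0) and Gm16222 (278 and 87, -1.83). Gm33474 (-1.64), E230016M11Rik (-1.50) and Gm5860 (-1.49) followed. In a list of named lncRNAs and small nucleolar RNA hosts, 38 genes were in the table and 25 were evaluated, with a median of -0.31. Of these, 1700020I14Rik (Oip5os1, the Cyrano lncRNA) was called lower, at -1.07 (-1.37 to -0.76), and 24 were not called. The most abundant were Gas5 (-0.16), Zfas1 (-0.53), Ftx (-0.45) and Pvt1 (-0.49).

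In a list of other imprinted genes, 22 of 53 were evaluated, 2 were called higher, 0 lower and 20 were not called (median 0.03), beside 0.719% of all genes called higher and 4.4% lower. Zrsr1, an imprinted gene within Commd1 that encodes a protein related to the splicing factor U2af1, had 46 and 117 IP counts and a ratio of 1.19 (0.69 to 1.72). Inpp5f, a phosphoinositide phosphatase with an imprinted transcript variant, had 94 and 208 counts and a ratio of 0.99 (0.64 to 1.36). Zrsr1 was at 0 in input, as Peg13 was. Of the most abundant genes of the list, Gnas (0.03), the neuronal splicing protein gene Snrpn (0.02) and Ndn (-0.06) were near the median of all genes, -0.08. Commd1, at 0.26 (0.14 to 0.39), lay above it. Kcnq1ot1, a nuclear imprinted lncRNA named here after its values were seen, had 219 and 155 counts and a ratio of -0.65 (-0.96 to -0.35). Of the genes around Meg3 and Peg13, 6 of 12 were evaluated and none was called (median 0.10). Wars was at 0.21 and Ptk2, a low-ratio gene, at -0.37, beside the Chrac1 and Trappc9 values above. Dlk1 and Dio3 had no row.

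Genes for protein partners of the nuclear members had list medians of -0.17 to -0.01, and none was called, beside 3.26% of protein-coding genes called in either direction. Of 25 listed paraspeckle protein genes 20 were evaluated (median -0.11), with Matr3 at -0.23, Hnrnpk at -0.21, Hnrnpa2b1 at -0.14 and Hnrnpa1 at -0.17. Of 31 nuclear speckle and splicing genes 28 were evaluated (median -0.03), with the U1 particle gene Snrnp70 at -0.58, Srsf3 at 0.012, Rbfox2 at 0.16 and Srsf5 at 0.081. The 13 evaluated genes of nuclear RNA export and decay had a median of -0.17. The N6-methyladenosine writer Mettl3 was at -0.48, the reader Ythdc1 at -0.61 and Drosha at 0.069. Matr3, Snrnp70, Mettl3 and Ythdc1 were low-ratio genes, as Snhg11 was. The 6 evaluated genes of polycomb and chromatin partners had a median of -0.01, with Rbbp4 at 0.34 and Mdm2 at -0.17.

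Neuron markers were present in the IP, with 11 of 11 evaluated and a summed level of 6884 CPM in the control IP and 7907 in the shLarp1 IP. Most of that gain was in Uchl1 (30802 and 40347 counts), and the median ratio of the list was -0.10. Markers of Schwann cells and satellite glia (9 of 10 evaluated, Ncmap without a row) summed to 737 and 746. Fibroblast markers (7 of 8) summed to 206 and 202, and macrophage markers (5 of 8, Ptprc without a row) to 86.1 and 97.7. None of the 5 endothelial markers was evaluated, and they summed to 6.82 and 7.87. No marker was called, beside 3.26% of protein-coding genes called in either direction, and none in the table was at 0 in the IP. The part of these cells in the members' values was not tested.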

How the data were processed

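The members and gene lists were chosen with earlier results of these data known. The authors deposited estimated counts, as whole numbers per gene for 12 columns and with no depth scaling. Per the labels' protocols, libraries came from a nanopore cDNA-PCR barcoding kit. Tools named in the submitters' processing notes are Salmon and minimap2, with builds mm39 and GRCm39, while their versions, the annotation and the use of strand were not given there. Per the labels, the source is cultured neurons, although the extraction text speaks of fresh ganglia, and both control wordings were taken as one control virus.

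Symbols were matched by identifier for 13711 genes and RefSeq types (GRCm38.p6) for 13169. Genes were filtered with filterByExpr (minimum count 10, 8773 kept, of which 8766 had IP counts) and scaled by TMM over the 12 columns in edgeR 4.0.16, R 4.3.3. The size rule was used because the columns agreed about within sampling noise. It was also run on simulated counts with counting error alone, which cannot show how it does with variation between animals, cultures or libraries. Intervals are Clopper-Pearson at 95%, except that the difference between IP and input uses 0.5 added counts and a normal approximation. CPM values use total counts. Alternatives were other scalings, size rules, no filter, each column left out, and edgeR's quasi-likelihood test and DESeq2 1.42.0 on the columns with an adjusted p threshold of 0.05. Those for Snhg11 in input were chosen after seeing the data. Named genes are the members, Larp1, their neighbours in RefSeq order (1 is not reported here), the called genes and most abundant others of each list, and the 6 largest called changes per direction of other non-coding genes.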

Additional observations from a re-analysis of the deposited data

Results flagged for a closer look

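Snhg11 was lower with shLarp1 in IP and higher in input. The log2 ratio in IP minus that in input was -1.01 (-1.24 to -0.78, counting error only). By total counts the input ratio was 0.15 (-0.03 to 0.34), an interval that includes 0. Low-ratio genes as a class had medians of -0.48 in IP and 0.43 in input, and 46.4% were called lower for the same difference. These class values were computed with TMM scaling alone. With 1 sample per group the difference was not tested between samples.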

How the results depend on the processing

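No member was called with DESeq2 size factors, upper-quartile factors, total counts, TMM on the IP columns alone, no filter or a 2-fold rule. Against 63 genes called higher and 386 lower, counts were 104 and 207 with upper-quartile factors, 105 and 205 with total counts, 311 and 776 with no filter, and 14 and 71 with the 2-fold rule. Total counts raised the median of all genes by 0.13 (log2). The lower size rule gave 204 and 1059, with 2 members called (Peg13 and Snhg11). Centring on the median of genes at 0 in input gave 558 and 52 with 1 member called (Peg13, 1.16), and the ratios of Malat1 (0.22), Neat1 (0.27) and Miat (0.31) turned positive. Treating columns as replicates called the same 2 members: edgeR's quasi-likelihood test gave 1189 and 1627, the fit with the replicate block 1174 and 1606, and DESeq2 518 and 984. Same-numbered columns did not deviate together (r = 0.0098, -0.0567 and 0.0018), so the numbers share no pairing that the data show, and the block changed no member's call. Without 1 IP column in turn, 47 to 65 genes were higher, 316 to 357 lower and 0 members called. Neat1 then ranged from -0.32 to 0.023, turning positive without control column 2, and Miat from -0.42 to 0.26, turning positive without control column 3. The IP-minus-input difference of Snhg11 was not called with total counts (-0.65). It was called lower with DESeq2 size factors (-1.21), with upper-quartile factors (-1.02) and without any 1 column. Meg3, Rian, Neat1 and Miat had 10 to 73 counts per group, which limits what could be seen.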
